A study of Mus musculus with 2 samples.

Results

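Cystatins and lysosomal cathepsins are the inhibitors and proteases of one degradative system, and their genes were followed here in RAW264.7 cells, a mouse macrophage line derived from a leukaemia. The 10 genes, Cst7, Cst3, Cstb, Ctsb, Ctsc, Ctsd, Ctsl, Ctss, Ctsz and Lgmn, were chosen by name, with earlier ratios of these data known, and all 10 were found among the 56791 genes of the deposited count table. Wild-type RAW264.7 cells received 20 ng of recombinant mouse IL-4, a cytokine that drives the alternative (M2) activation state, for 24 h, as the labels are read here. The treated culture also received 10000000 particles of a preparation named FAPD10-exos over the same period, and the vehicle culture did not. Each group held 1 library made from total RNA, with 37196241 counts for FAPD10-exos and 36152743 for vehicle. A cell line in culture was used, so the values do not describe macrophages of a tissue. With 1 culture each, no difference could be checked in a replicate, and the values speak of this pair of libraries.

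Cathepsins are made as inactive precursors, sorted to the endosome and lysosome, and activated there by acid and by cleavage. Most are cysteine proteases, and Ctsd encodes an aspartic protease that cystatins do not inhibit. Cystatins bind the active site of cysteine proteases and hold them in check. In macrophages the system degrades engulfed material and trims antigens and the invariant chain of MHC class II.

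The inhibitor gene Cst7 and the protease gene Ctsz stood apart from the others. Cst7, which encodes cystatin F, an inhibitor that reaches the lysosome of immune cells, was 6.37-fold higher in the treated library, although from few counts. Ctsz, which encodes the carboxypeptidase cathepsin Z (also named X), was 2.10-fold higher at a high level. The other 8 genes had ratios between 0.947 and 1.37. Ratios are treated over vehicle counts after scaling by effective library size, each is followed in parentheses by its 95% counting interval, and CPM are counts per 1000000 of that size. The intervals cover counting error only. Low counts were mostly even, 76.3% of those from 1 to 50 under FAPD10-exos and 75.2% under vehicle. Whether both ends of read pairs were counted is not stated, so intervals from halved counts are given where they matter.

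The promoters of 8 of the 10 genes were matched by symbol in a RefSeq table on GRCm38.p6, each 250 bases before to 50 bases after a start, with 9 entries because Lgmn has 2. Those of Cst7 (chr2:150570165-150570464, plus strand) and Ctsz (chr2:174438990-174439289, minus strand) are shown because these genes had the highest ratios. That of Ctsd (chr7:142387778-142388077, minus strand) is shown because it holds the core, CACGTG, of the element that lysosomal genes share and that TFEB binds. Sequences run 5′ to 3′ along the gene, and capitals mark this core and, where present, the T before it or the A after it.
Cst7: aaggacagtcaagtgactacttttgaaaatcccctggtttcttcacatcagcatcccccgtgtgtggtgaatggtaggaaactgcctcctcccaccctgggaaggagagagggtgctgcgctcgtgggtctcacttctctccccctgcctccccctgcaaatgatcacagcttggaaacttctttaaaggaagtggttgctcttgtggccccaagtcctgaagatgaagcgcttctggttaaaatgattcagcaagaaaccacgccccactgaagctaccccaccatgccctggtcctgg
Ctsz: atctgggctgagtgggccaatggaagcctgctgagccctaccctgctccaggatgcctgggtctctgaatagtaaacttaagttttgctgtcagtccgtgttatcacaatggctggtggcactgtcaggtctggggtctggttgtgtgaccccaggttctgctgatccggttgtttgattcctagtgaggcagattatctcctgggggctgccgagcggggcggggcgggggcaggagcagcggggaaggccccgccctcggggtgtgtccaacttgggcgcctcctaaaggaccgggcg
Ctsd: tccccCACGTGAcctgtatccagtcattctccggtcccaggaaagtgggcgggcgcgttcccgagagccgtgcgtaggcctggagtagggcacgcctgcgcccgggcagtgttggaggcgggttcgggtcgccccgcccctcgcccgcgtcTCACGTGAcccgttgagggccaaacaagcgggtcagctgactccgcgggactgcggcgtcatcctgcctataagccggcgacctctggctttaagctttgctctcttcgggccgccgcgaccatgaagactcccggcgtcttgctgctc

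CACGTG was found in 3 of the 9 promoters, those of Ctsd, Ctsl and 1 of the 2 starts of Lgmn, against 7.15% of all 32851 promoters in the table. TCACGTG, which contains CACGTG and so overlaps it, was found on either strand in Ctsd and in that start of Lgmn, against 3.77% of all promoters. In Ctsd the matches began 245 and 98 or 99 bases before the start, in Lgmn 49 or 50 bases and in Ctsl 236 bases before it. TTC and GAA with 4 bases of any kind between them, a form that STAT6 binds, were in 0 of the 9 windows, against 6.95% of all. GAGGAAGT, a form that PU.1 binds, was found on either strand in Ctss and Ctsc, against 3.20% of all. The windows of Cst7 and Ctsz, like that of Cst3, held none of the 4 motifs searched. A match describes letters, not binding.

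Positions below come from the count table, for which no mouse build is named in the labels or headers, and they are not to be mixed with the promoter coordinates above. Cst7 lies on chromosome 2 from 150412335 to 150420864, Cst3 from 148713642 to 148717612 and Ctsz from 174269286 to 174280832 of the same chromosome. Cstb lies on chromosome 10 from 78261503 to 78263456, Ctsb on chromosome 14 from 63359911 to 63383372 and Ctsl on chromosome 13 from 64507151 to 64518704. Ctsc lies on chromosome 7 from 87927293 to 87960096 and Ctsd from 141929648 to 141941775. Ctss lies on chromosome 3 from 95434097 to 95463714 and Lgmn on chromosome 12 from 102360343 to 102406072. The table counts each gene over its exons. In Cst7, Cst3, Cstb, Ctsc, Lgmn and Ctss no exon base was shared with another gene. Ctsd shared 34.4% of its exon length with Gm49369 on the same strand, which itself had 4981 counts under FAPD10-exos and 5029 under vehicle. Ctsl shared 26.9% with Gm47123 and Gm49230, which had 4 and 0 counts under FAPD10-exos and 3 and 0 under vehicle. How shared reads were counted is not given, so the values of Ctsd and Ctsl are uncertain. Ctsb shared 12.8% with Fdft1 and Ctsz 0.694% with Nelfcd.

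Among the inhibitors, Cst7 had 132 counts under FAPD10-exos and 22 under vehicle, or 3.71 CPM under FAPD10-exos and 0.582 CPM under vehicle. The ratio was 6.37 (4.04 to 10.5), and its interval was 3.34 to 13.4 with counts halved. Cst7 thus passed the filter of a mean of at least 1 CPM through the treated library. It stood at rank 5 from the top among 12264 measured genes, where measured means past that filter. The 3 measured genes nearest to it over both log2 ratio and log2 mean CPM, across these 2 libraries, were Snrpert at a distance of 0.639, Mir762 at 0.839 and Cish, a feedback inhibitor of cytokine signalling, at 0.859. Snrpert had 142 counts under FAPD10-exos and 36 under vehicle, Mir762 had 128 under FAPD10-exos and 38 under vehicle and Cish had 84 under FAPD10-exos and 10 under vehicle. Counts at Mir762 cannot be assigned to the mature microRNA.

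Cst3 encodes cystatin C, the abundant secreted cystatin. It had 18599 counts under FAPD10-exos and 16058 under vehicle, 523 CPM under FAPD10-exos and 425 under vehicle, a ratio of 1.23 (1.20 to 1.26). Cstb, which encodes cystatin B, an inhibitor of the cytosol, had 841 counts under FAPD10-exos and 650 under vehicle, 23.6 CPM under FAPD10-exos and 17.2 under vehicle, a ratio of 1.37 (1.24 to 1.52). Both intervals lay above 1, and both ratios were under the 1.5-fold threshold used to call a gene higher or lower.

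Among the cysteine proteases, Ctsz had 12866 counts under FAPD10-exos and 6514 under vehicle, 362 CPM under FAPD10-exos and 172 under vehicle. The ratio was 2.10 (2.04 to 2.16), 2.01 to 2.19 with counts halved, and rank 382 of the 12264 measured genes. The treated library was the higher for this gene by a margin far wider than the counting error.

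Ctss, whose product cathepsin S keeps its activity near neutral pH and trims the invariant chain, had 13334 counts under FAPD10-exos and 12433 under vehicle, 375 CPM under FAPD10-exos and 329 under vehicle, a ratio of 1.14 (1.11 to 1.17). Ctsb, whose product cathepsin B cuts both within chains and from their carboxyl ends, had 15920 counts under FAPD10-exos and 15551 under vehicle, 447 CPM under FAPD10-exos and 411 under vehicle, a ratio of 1.09 (1.06 to 1.11). Ctsl, the gene of the endopeptidase cathepsin L, had 11684 counts under FAPD10-exos and 13101 under vehicle, 328 CPM under FAPD10-exos and 347 under vehicle. Its ratio of 0.947 (0.924 to 0.971) was the only one of the 10 below 1.

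Lgmn encodes legumain, which cuts after asparagine and processes several cathepsins to their mature form. It had 3330 counts under FAPD10-exos and 2618 under vehicle, 93.6 CPM under FAPD10-exos and 69.3 under vehicle, a ratio of 1.35 (1.28 to 1.42). Ctsc encodes cathepsin C, a dipeptidyl peptidase that activates granule serine proteases. It had 414 counts under FAPD10-exos and 378 under vehicle, 11.6 CPM under FAPD10-exos and 10.0 under vehicle, a ratio of 1.16 (1.01 to 1.34) whose interval with counts halved, 0.950 to 1.42, included 1. Ctsd, the gene of the aspartic protease cathepsin D, had 6017 counts under FAPD10-exos and 5956 under vehicle, 169 CPM under FAPD10-exos and 158 under vehicle, a ratio of 1.07 (1.04 to 1.11).

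**Figure D1:**
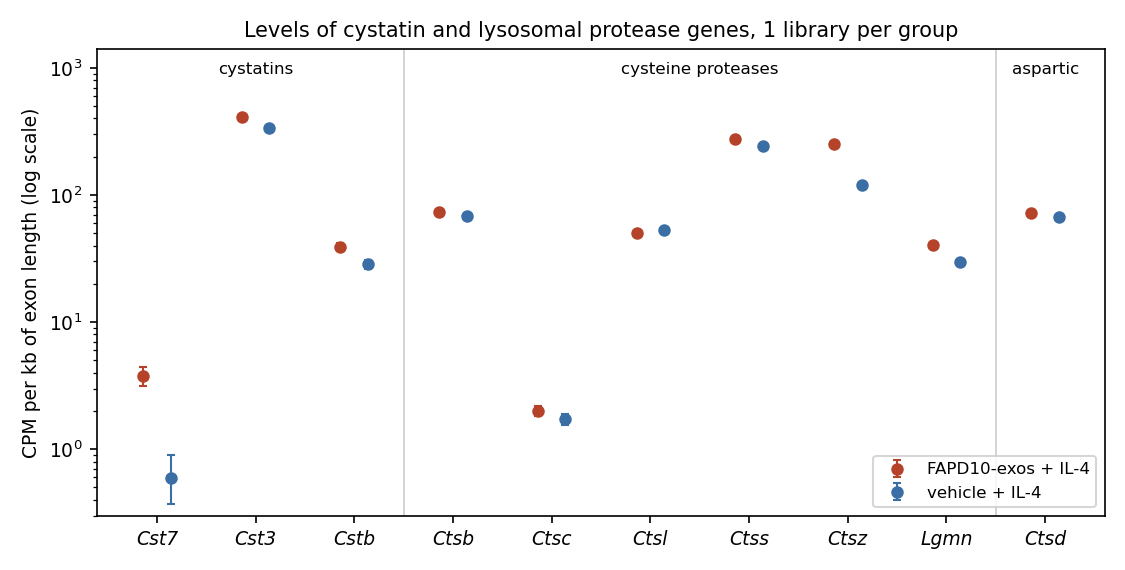
Level of each gene in CPM per kb of exon length (log axis) in the treated library (red, left of each pair) and the vehicle library (blue), 1 library per group. Bars are 95% Poisson counting intervals; Cst7 and Ctsz show a visible gap between the libraries, and Cst3 has the highest level in both.

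Per kb of exon length, Cst3 had the highest level, at 413 CPM per kb under FAPD10-exos and 336 under vehicle. Ctss came next at 276 under FAPD10-exos and 242 under vehicle, then Ctsz at 251 under FAPD10-exos and 119.6 under vehicle and Ctsb at 73.9 CPM per kb under FAPD10-exos and 68.0 under vehicle. Ctsd had 71.9 CPM per kb under FAPD10-exos and 67.0 under vehicle, Ctsl 50.6 under FAPD10-exos and 53.4 under vehicle, Lgmn 40.3 under FAPD10-exos and 29.8 under vehicle and Cstb 39.2 under FAPD10-exos and 28.5 under vehicle. The order of these 8 genes was the same in both libraries. On this basis the counting intervals of Ctsb and Ctsd overlapped in both libraries, and so did those of Lgmn and Cstb. Per kb of the principal transcript in GENCODE M21 the intervals of both pairs were apart in both libraries. There Ctsb had 94.3 CPM per kb under FAPD10-exos and 86.8 under vehicle, and Ctsd 79.5 under FAPD10-exos and 74.1 under vehicle. Lgmn had 47.0 under FAPD10-exos and 34.8 under vehicle, and Cstb 39.2 under FAPD10-exos and 28.5 under vehicle.

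The last places differed. Cst7 had 3.76 CPM per kb (3.15 to 4.46) and Ctsc 2.003 (1.81 to 2.21) in the treated library, where Cst7 was the higher. In the vehicle library Cst7 had 0.590 CPM per kb (0.370 to 0.894) and Ctsc 1.72 (1.55 to 1.90), so that Ctsc was the higher there. Ctsc has an exon length of 5808 bases in the table and a principal transcript of 2493 bases in GENCODE M21. Per kb of the principal transcript, Cst7 was below Ctsc in both libraries. Cst7 had 3.76 (3.15 to 4.46) and Ctsc 4.67 (4.23 to 5.14) under FAPD10-exos, where the intervals overlapped. Under vehicle Cst7 had 0.590 (0.370 to 0.894) and Ctsc 4.01 (3.62 to 4.44), and the intervals were apart.

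By the rule of at least 1.5-fold with a counting interval that excludes 1, 2 of the 10 genes were higher under FAPD10-exos and 0 lower. The same rule called 17.1% of all 12264 measured genes higher and 19.8% lower. Since the genes were chosen with these ratios known, nothing is read from these counts. The median log2 ratio of the 10 genes was 0.26, against 0.01 over all measured genes, and it was 0.22 without Cst7. Scaling by total counts instead shifted the median over all measured genes by -0.128 in log2. Of the 10 ratios 9 were above 1, and 7 under scaling by total counts, where Ctsb at 0.995 and Ctsd at 0.982 were below 1 with Ctsl. With a median near 0, about as many of all measured genes had ratios above 1 as below, and fewer above 1 under total counts. Nothing is read from these numbers of genes either.

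**Figure D2:**
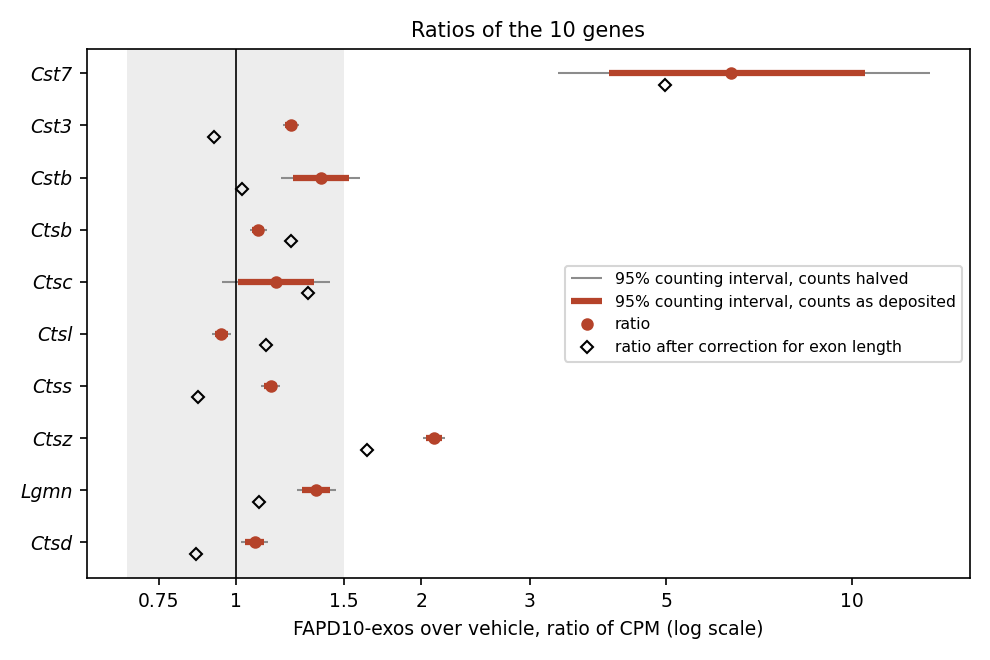
Ratio of the treated over the vehicle library for each gene (log axis), with 95% counting intervals from counts as deposited (thick) and halved (thin); open diamonds give the ratio after correction for exon length, and the grey band marks ratios under 1.5-fold. Cst7 and Ctsz lie beyond the band with and without the correction.

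The ratio went with length across all measured genes, and why was not tested. Spearman's rho between exon length and log2 ratio was -0.453 over 12264 genes, a description, since genes do not replicate a condition. With the length of the principal transcript in place of exon length, rho was -0.596 over the 9975 measured genes for which it was known. When genes were split by exon length into 10 bins of equal size, the median log2 ratio was 0.44 for the shortest, of 57 to 1030 bases. It was -0.62 for the longest, of 9472 to 123179 bases. The running median over exon length stood at 0.36 in log2 at the length of Cst7 and at 0.36 at that of Ctsz, which left 2.31 and 0.71 for these genes. For the short genes Cst3, Ctss and Ctsd, whose log2 ratios were 0.30, 0.19 and 0.10, the running median was higher, at 0.42, 0.39 and 0.32. Cstb and Lgmn were above it by 0.03 and 0.12. For the long genes Ctsb, Ctsc and Ctsl it was -0.18, -0.17 and -0.24, and they stood 0.30, 0.39 and 0.16 above it. After this correction 7 of the 10 genes were above 0 and the same 2 genes, Cst7 and Ctsz, were at least 1.5-fold higher. Of all 12264 measured genes, 1509 were called higher and 2001 lower after it. A running median leaves about as many genes above 0 as below by construction, with either measure of length. By the length of the principal transcript, an alternative added after seeing the data, 6 of the 10 genes were above 0. On that basis Cst7 stood at 2.04, Ctsz at 0.65, Ctsb at 0.52, Ctsl at 0.46, Lgmn at 0.22 and Ctsc at 0.11. Cstb turned to -0.23, and Cst3 stood at -0.35, Ctss at -0.25 and Ctsd at -0.11.

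**Figure D3:**
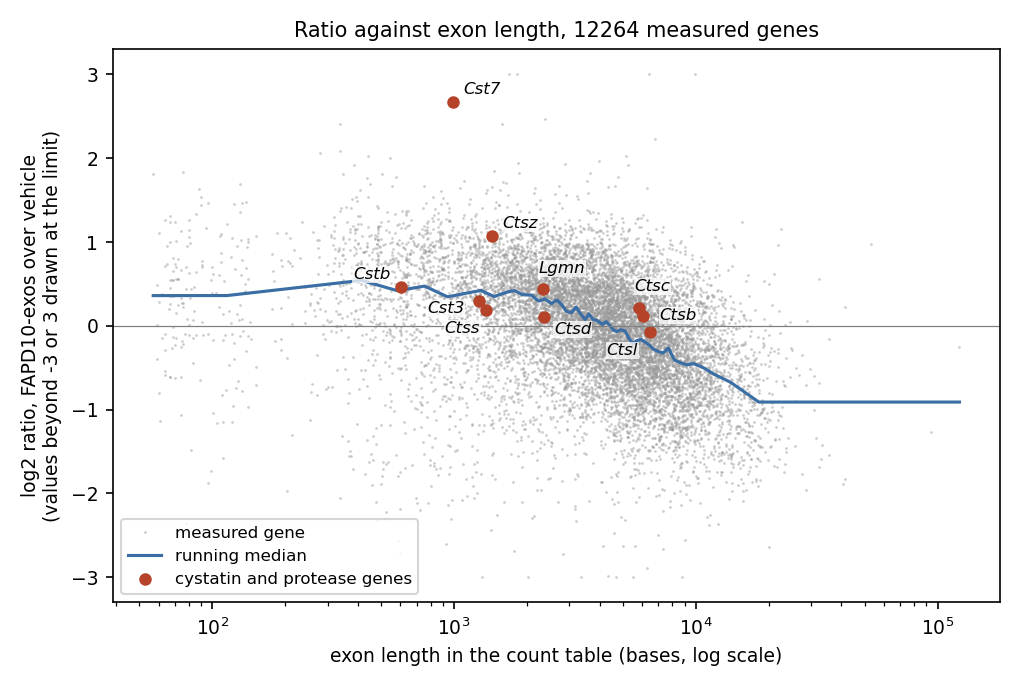
Log2 ratio of the treated over the vehicle library against exon length (log axis) for 12264 measured genes (grey), with the running median (blue) and the 10 genes (red). Short genes lie mostly above 0 and long genes below, and Cst7 and Ctsz lie above the running median at their lengths.

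In the make-up of the cysteine protease transcripts, the share of Ctsz differed most between the libraries. Of the summed counts per kb of Ctsb, Ctsc, Ctsl, Ctss, Ctsz and Lgmn, Ctsz held 36.2% under FAPD10-exos and 23.2% under vehicle. Ctss held 39.8% under FAPD10-exos and 47.1% under vehicle, Ctsb 10.7% under FAPD10-exos and 13.2% under vehicle and Ctsl 7.29% under FAPD10-exos and 10.4% under vehicle. Lgmn held 5.81% under FAPD10-exos and 5.79% under vehicle and Ctsc 0.289% under FAPD10-exos and 0.334% under vehicle. The 3 cystatins together, per kb, came to 0.657 of the 6 proteases under FAPD10-exos and 0.708 under vehicle. Cst3 held 90.6% of the cystatin sum under FAPD10-exos and 92.0% under vehicle, and Cst7 0.825% under FAPD10-exos and 0.162% under vehicle. Without division by length the ratio of cystatins to proteases was 0.340 under FAPD10-exos and 0.331 under vehicle, so which library was higher turned with that choice.

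**Figure D4:**
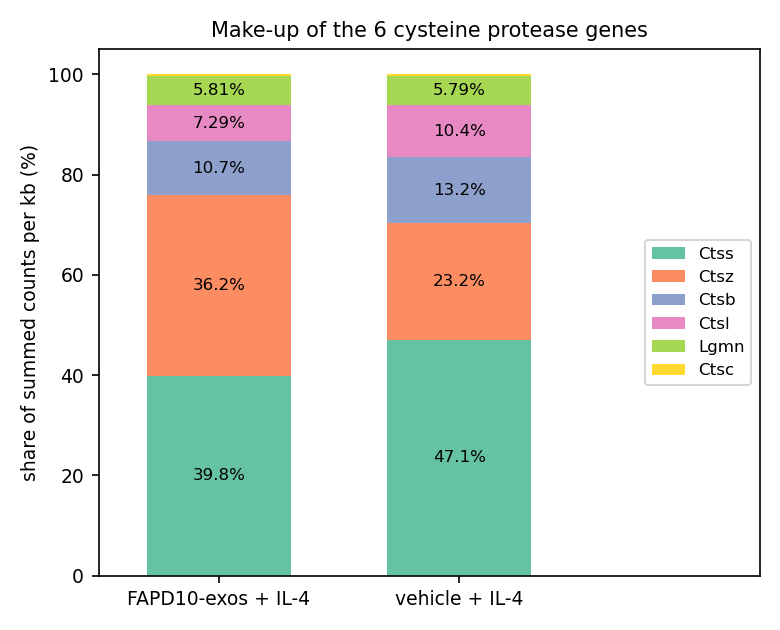
Share of each of 6 cysteine protease genes in their summed counts per kb of exon length (%), in the treated library (left bar) and the vehicle library (right bar). Ctsz takes 36.2% under FAPD10-exos and 23.2% under vehicle.

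All 10 genes together took 83137 counts under FAPD10-exos, or 0.224% of the library, and 73281 counts under vehicle, or 0.203%. The ratio of the sums was 1.24 (1.22 to 1.27) for the 3 cystatins and 1.21 (1.19 to 1.22) for the 6 cysteine proteases. Cst3 gave 18599 of the 19572 cystatin counts under FAPD10-exos and 16058 of 16730 under vehicle. Ctsz gave 12866 of the 57548 protease counts under FAPD10-exos and 6514 of 50595 under vehicle. The other cysteine proteases had ratios from 0.947 to 1.35, so these sums do not describe each gene. Most relatives of these genes had few or no counts. Of 20 other cystatin genes in the table, 18 had 0 counts in both libraries, Csta1 had 3 under FAPD10-exos and 4 under vehicle and Cstl1 2 counts under FAPD10-exos and 2 under vehicle. A count of 0 allows up to 3 counts, or 0.0843 CPM under FAPD10-exos and 0.0794 CPM under vehicle. On chromosome 2, 10 cystatin genes including Cst3 lie between 148592278 and 149252213, and Cst3 and Cstl1 were the ones with a count. Cst7 lies 1160 kb beyond that group. Its nearest neighbours with a count, chosen by position, were Gm14121 at 12 counts under FAPD10-exos and 18 under vehicle and Apmap at 1074 under FAPD10-exos and 996 under vehicle, a ratio of 1.15 (1.05 to 1.25). Neither was 1.5-fold higher.

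Of 16 other cathepsin genes, 9 had 0 counts in both libraries and 4 were measured. Ctsa, a lysosomal carboxypeptidase of the serine type that protects other hydrolases, had 4931 counts under FAPD10-exos and 4708 under vehicle, a ratio of 1.11 (1.07 to 1.16). Ctse, an aspartic protease of endosomes, had 76 counts under FAPD10-exos and 130 under vehicle and was lower under FAPD10-exos by 1.61-fold (1.20 to 2.17). Ctso had 96 counts under FAPD10-exos and 66 under vehicle, with a scaled ratio of 1.54 (1.12 to 2.15). Its interval with counts halved, 0.971 to 2.48, included 1, and it was under 1.5-fold after scaling by total counts. Ctsf had 170 under FAPD10-exos and 177 under vehicle. Ctsk, the osteoclast cathepsin gene near Ctss on chromosome 3, had 0 counts under FAPD10-exos and 4 under vehicle, Ctsh had 20 under FAPD10-exos and 24 under vehicle and Ctsw 3 under FAPD10-exos and 0 under vehicle. The next measured neighbour of Ctss, Golph3l, had 511 counts under FAPD10-exos and 1047 under vehicle, a ratio of 0.518. Nelfcd, which overlaps Ctsz, had 618 counts under FAPD10-exos and 613 under vehicle, a ratio of 1.07 (0.956 to 1.20). Farther from Ctsz, Atp5e had 910 counts under FAPD10-exos and 398 under vehicle, a ratio of 2.43 (2.16 to 2.74). Prelid3b had a ratio of 1.49 and Npepl1, 304423 bases away, one of 1.45, whereas Gnas had 0.935. The ratios of these neighbours are given without correction for length.

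The lists that follow were also chosen with earlier results of these data known, and members are called by the same rule, with the same 17.1% and 19.8% of all measured genes for comparison. Among serpins and other inhibitors of cathepsins, 1 of 5 measured genes was higher and 0 lower. Serpinb6b had 256 counts under FAPD10-exos and 96 under vehicle, with a scaled ratio of 2.83 (2.23 to 3.62). Its close copy Serpinb6a had 3283 under FAPD10-exos and 2521 under vehicle, a ratio of 1.38 (1.31 to 1.46). Reads that the pair shares could not be told apart. Serpinb8 had a ratio of 1.32 and Serpinb9, an inhibitor of granzyme B, one of 0.972.

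Among substrates of cathepsins and enzymes that they activate, 3 of 11 measured genes were higher and 0 lower. Their median log2 ratio was 0.22. It was 0.07 after correction for exon length, where 2 genes were higher. By principal transcript length, which was not known for Ifi30, it was 0.15. Ifi30, which encodes a lysosomal thiol reductase that unfolds antigens, had 9005 counts under FAPD10-exos and 4316 under vehicle, or 253 CPM under FAPD10-exos and 114 under vehicle, with a scaled ratio of 2.22 (2.14 to 2.30). Cd74, the invariant chain that cathepsin S trims, had 6440 counts under FAPD10-exos and 2316 under vehicle. After correction for exon length Ifi30 stood at 0.79 in log2 and Cd74 at 1.16.

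Among genes that sort enzymes to the lysosome, 0 of 16 were higher and 4 lower. Their median log2 ratio was -0.20. Igf2r, the large mannose 6-phosphate receptor, had 1510 counts under FAPD10-exos and 3062 under vehicle and was 1.91-fold lower in the treated library. Gnptab, a subunit gene of the enzyme that builds the mannose 6-phosphate tag, had 1373 under FAPD10-exos and 2876 under vehicle and was 1.97-fold lower. Sorl1, a sorting receptor, was 1.79-fold lower and Vps35 of the retromer 1.60-fold lower. These are long genes, and after correction for exon length Gnptab at -0.82 in log2 was the 1 gene still 1.5-fold lower, with Igf2r at -0.47, Sorl1 at -0.30 and Vps35 at -0.23. After the same correction 2001 of all 12264 measured genes were called lower. By principal transcript length Gnptab was under the threshold too, at -0.52, with Vps35 also at -0.52 and Igf2r at -0.09, and Sorl1 turned to 0.13. The median of the list was -0.15 after correction for exon length and -0.03 by principal transcript length. The small receptor M6pr had a ratio of 0.964.

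Among 19 measured regulators of lysosomal genes and of macrophage transcription, 4 were higher and 5 lower, with a median of -0.15. Mitf, a relative of TFEB, had 876 counts under FAPD10-exos and 1851 under vehicle and was 1.99-fold lower in the treated library, with -0.79 in log2 after correction for exon length. Tfeb itself had 187 counts under FAPD10-exos and 203 under vehicle, a ratio of 0.978 (0.798 to 1.20). Mtor, the kinase that restrains TFEB, was 1.95-fold lower and Irf8, a myeloid transcription factor, 1.85-fold lower, while Lamtor2 of the Ragulator complex had a ratio of 1.82 (1.71 to 1.94). After that correction Lamtor2 stood at 0.45 in log2, Mtor at -0.50 and Irf8 at -0.58, and all 3 were then under the threshold of 1.5-fold. By principal transcript length Mtor stood at -0.15 and Irf8 at -0.90. Of 36 other lysosomal hydrolases and membrane proteins, 5 were higher and 5 lower, with a median of 0.05. Glb1, the beta-galactosidase gene, had 99 counts under FAPD10-exos and 46 under vehicle, with a scaled ratio of 2.29 (1.60 to 3.32), and Dpp7, a dipeptidyl peptidase gene, a ratio of 1.88, whereas Arsb, a sulfatase gene, was 2.11-fold lower.

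**Figure D5:**
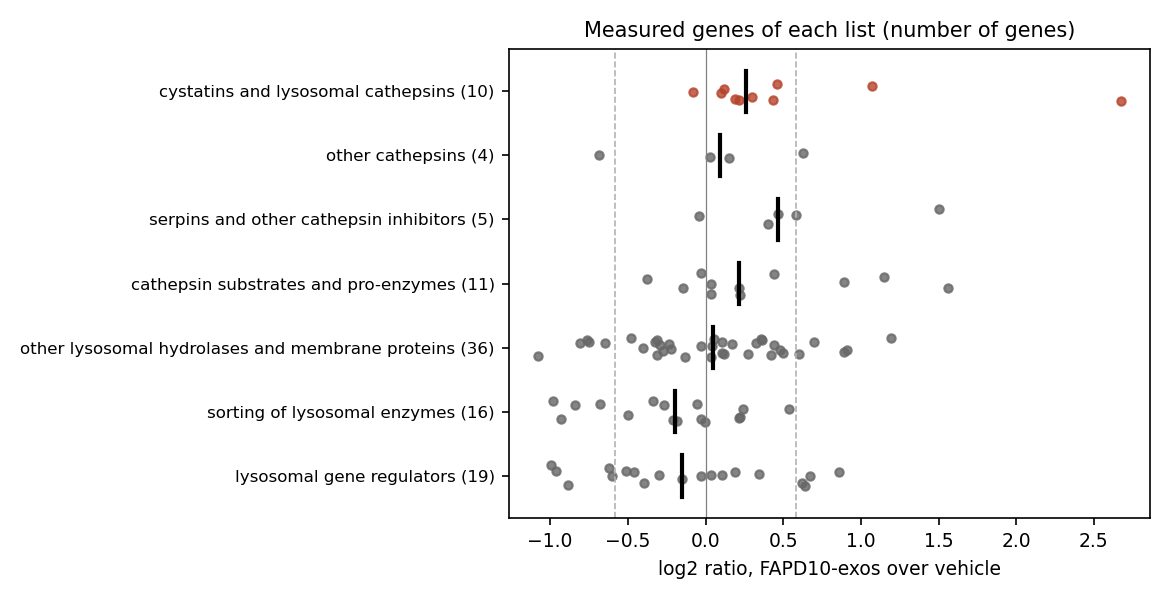
Log2 ratio of the treated over the vehicle library for the measured genes of each list, with the number of genes after its name; each dot is a gene, the vertical bar is the median and dashed lines mark 1.5-fold. The 10 cystatin and protease genes (red) reach from -0.08 to 2.67, and the sorting genes have a median of -0.20.

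The label of the cells was checked with marker genes. Of 11 macrophage markers 10 were measured, with a summed level of 2225 CPM under FAPD10-exos and 2431 CPM under vehicle. Adgre1, at 247 counts under FAPD10-exos and 90 under vehicle, and Spi1 were called higher under FAPD10-exos and Ptprc lower, and their part in the ratios above was not tested. After correction for exon length Adgre1 stood at 1.34 in log2 and Spi1 at 0.38, under the threshold. Ptprc turned to 0.27 in place of -0.64 on that basis. By principal transcript length Ptprc did not turn and stood at -0.25, under the threshold, with Adgre1 at 1.62 and Spi1 at 0.45. T and NK cell markers, which matter here because cytotoxic cells make cystatin F and cathepsin C, summed to 2 counts under FAPD10-exos and 1 under vehicle, with Cd3e, Nkg7 and Klrb1c at 0. Mast cell markers summed to 2 counts under FAPD10-exos and 3 under vehicle, fibroblast markers to 10 under FAPD10-exos and 6 under vehicle with Col1a1, Col1a2, Dcn, Lum and Thy1 at 0, muscle markers to 12 under FAPD10-exos and 10 under vehicle and endothelial markers to 26 under FAPD10-exos and 12 under vehicle. Osteoclast markers summed to 145 counts under FAPD10-exos and 168 under vehicle, nearly all from Dcstamp at 137 under FAPD10-exos and 162 under vehicle. Fewer cells of a type and less RNA per cell cannot be told apart in such bulk libraries.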

How the data were processed

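Gene-level counts of RNA-seq reads were analysed in 2 libraries, 1 per group. The authors deposited 1 table of counts, whole numbers that were not normalised, in the layout that featureCounts writes per the file headers, with the length of each gene's merged exons. Software is listed as STAR 2.5.3a, featureCounts and fastp 0.23.4, per the submitters' processing notes, which also name GRCh38, a human build, although the symbols in the table are of mouse genes. The annotation, the strand setting and what was done with multiply mapped or shared reads have no mention in the sources used here. Each column carries the description that the labels give 1 sample.

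With 1 library per group there is no spread to test against, so no p-value is given. Counts were scaled with TMM in edgeR 4.0.16 (R 4.3.3), the factor being 0.957 under FAPD10-exos and 1.05 under vehicle, so that 1 CPM came to 35.6 and 37.8 counts. Intervals are exact Clopper-Pearson intervals at 95% of the treated share of both counts, and Poisson intervals for levels. A gene was called measured where its mean over both libraries reached 1 CPM. A count of 0 was met by adding 0.5 to both counts before the ratio. For the length correction, genes were ordered by length in 50 bins and the local median log2 ratio was taken off. Lengths of principal transcripts came from GENCODE M21, known for 9975 measured genes. The calling rule was tested on simulated counts with Poisson error only, and the length correction on a simulated slope. Variation between cultures was not simulated, so the test does not speak of it. Alternatives were scaling by total counts, median of ratios (DESeq2 1.42.0) or upper quartile, no filter or 10 CPM, halved counts, 1 CPM added, a 2-fold threshold and the length correction.

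The genes, the 7 lists and the rules were chosen with earlier results of these data known. All 10 genes are named. Of other cathepsins and cystatins, each gene with a count is named. From every remaining list, the text names at most 4 genes, taken by size of log2 ratio among those with 100 counts or more, and Tfeb, M6pr, Golph3l, Apmap, Gm14121, Atp5e, Prelid3b, Npepl1, Gnas and the overlapping genes were named after their values were seen, for their relation to these or their position. For Cst7, the 3 nearest measured genes were taken, leaving out predicted and clone names. The lists' symbols Cst14, BC100530, BC117090 and Limp2 were not analysed here, and some listed genes are counted but not reported by name. Promoters came from a RefSeq table on GRCm38.p6. Protein sequences were not used here. Intervals came from scipy 1.17.1 under Python 3.11.15.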

Additional observations from a re-analysis of the deposited data

How the results depend on the processing

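Cst7 and Ctsz were at least 1.5-fold higher and 0 of the 10 genes lower under all alternatives but the filter at 10 CPM, which dropped Cst7 and left 1. The ratio of Cst7 ran from 2.98, with 1 CPM added, to 6.68, and that of Ctsz from 1.57, with correction for principal transcript length, to 2.20. The other genes ran from 0.782 to 1.44. The median log2 ratio of the 10 genes was 0.13 under total counts and 0.14 after correction for exon length. Over all genes, 1162 were higher and 1372 lower at 10 CPM, and 514 and 1059 at a 2-fold threshold, against 2097 and 2429. Under total counts 1458 were higher and 3060 lower, under median of ratios 1879 and 2630 and under upper quartile 2480 and 2132. After correction for exon length they were 1509 and 2001, and with no filter 2713 and 3243. With halved counts they were 1987 and 2305, and with 1 CPM added 1679 and 2084. The ratio of cystatins to proteases was 0.340 under FAPD10-exos and 0.331 under vehicle without division by length, and 0.0619 and 0.0565 without Cst3.

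Of the 7 lists, other cathepsins had 0 higher under total counts, median of ratios, 10 CPM, halved counts, 1 CPM added and a 2-fold threshold, and 0 lower under 10 CPM, 1 CPM added and 2-fold. Serpins and other inhibitors had 2 higher with no filter or after length correction and 0 at 10 CPM. Sorting genes had 1 higher under upper quartile, 1 lower after length correction and 0 lower at 2-fold. Regulators had 1 higher under total counts, 0 after length correction and 0 at 2-fold, with 3 lower under upper quartile and 0 at 2-fold. Substrates had 1 lower with no filter. Other hydrolases had 3 higher under total counts, 3 lower at 10 CPM, and 1 higher and 1 lower at 2-fold. These list counts are to be read beside those over all genes given above. Stricter thresholds test fewer genes or call fewer by construction. Another scaling shifts all log2 ratios alike, by -0.128 under total counts, -0.0428 under median of ratios and 0.0679 under upper quartile. Calls near the threshold move with that shift, over all genes as in the lists. For the rest the cause was not tested.

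No paired analysis was possible because each group held 1 library, so leaving out a replicate was not run either. Depth limits Cst7 most, with 22 counts under vehicle.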

Other observations

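Several genes of the lists lay under the filter of a mean of 1 CPM and had unequal counts, and they were chosen after their values were seen. Tlr9, an endosomal receptor for DNA that cathepsins cut to its active form, had 2 counts under FAPD10-exos and 22 under vehicle. Arsa, the arylsulfatase A gene, had 50 under FAPD10-exos and 18 under vehicle, a ratio of 2.95 (1.69 to 5.37). Serpinb1a, an inhibitor of neutrophil serine proteases, had 6 counts under FAPD10-exos and 0 under vehicle. Pecam1, listed as an endothelial marker, had 24 under FAPD10-exos and 6 under vehicle, while Cdh5 had 2 under FAPD10-exos and 4 under vehicle. Granule serine proteases that cathepsin C activates were at or near 0, with 0 counts in both libraries for Elane, Prtn3 and Gzma and 0 under FAPD10-exos and 1 under vehicle for Gzmb.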
